A study of Mus musculus with 2 samples.

Results

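Mtss1 (NCBI Gene 211401) is a protein-coding gene of mouse chromosome 15, described here in the interval 58771001 to 58913000 of build mm9 (142 kb). It is read from the higher coordinate to the lower, so its start lies at 58913000 and its end at 58771001. The gene was chosen by its measured 5-hydroxymethylcytosine (5hmC): it holds the autosomal 100 kb bin with the second highest enrichment and a 13404 bp peak. In steps of 2 kb the interval makes up 71 of the 1320919 steps of all chromosomes. The series profiled kidney DNA of male C57BL/6 mice aged 6 weeks, C57BL/6 being an inbred strain. It compared 1 hMeDIP library, pulled down with an antibody from Active Motif against 5hmC, with 1 input library of kidney DNA of the same strain, age and sex that was sequenced without antibody. How many animals gave the DNA is not stated, and whole kidney mixes many cell types, so that a level is a mean over them. As each group is 1 library, nothing here has a replicate check and conditions were not tested against each other. The 95% intervals given below cover counting error only.

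The gene product, also known as MIM (missing in metastasis), binds membrane phospholipids and actin and bends the plasma membrane through an I-BAR domain. In mice it is known to help maintain the junctions between kidney tubule cells. The mark itself is made when TET enzymes oxidise 5-methylcytosine. In mammalian tissues 5hmC is known to lie mostly within the bodies of genes and to be scarce at starts that fall in CpG islands, short stretches rich in CG dinucleotides.

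Over the whole of Mtss1 4305 fragments came from hMeDIP and 535 from input. Each fragment was placed by its midpoint. Divided by all fragments of its library, the gene took 0.0377% of the hMeDIP fragments and 0.00643% of the input fragments. The ratio of these shares was 5.86 (5.35 to 6.42), where 1 is the mean of the genome in these libraries. This value is part of what the gene was chosen by and is a description. Input density differed little between the gene, at 3.77 fragments per kb, and the autosomes, at 3.27. The hMeDIP density was 30.3 per kb in the gene and 4.55 on the autosomes.

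**Figure D1:**
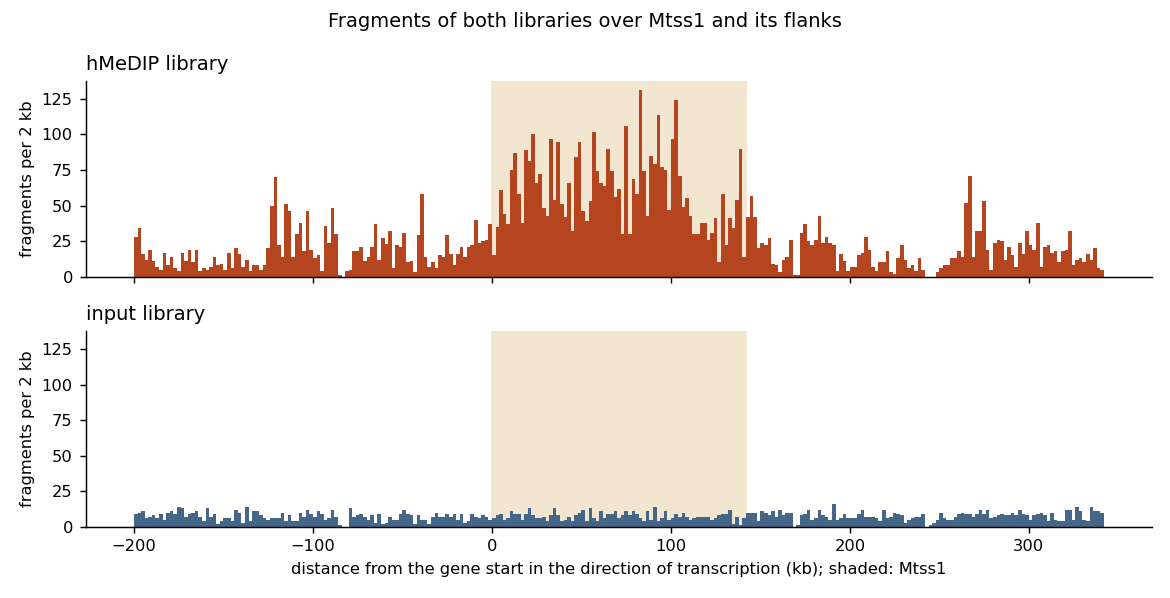
Fragments per 2 kb step (vertical axes, same scale) of the hMeDIP library (upper panel) and the input library (lower panel) against the distance from the gene start in kb, in the direction of transcription, with Mtss1 shaded. Inside the gene the hMeDIP steps run from 10 to 131 fragments and the input steps from 1 to 14.

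The signal filled nearly the whole gene. Of the 71 steps, the hMeDIP library held 10 to 131 fragments with a median of 58, and the input library 1 to 14 with a median of 7. A step was called high at a ratio of at least 2 and low at a ratio of at most 0.5, where it held at least 3 input fragments. In Mtss1 65 of 69 such steps were high, beside 16.2% of the 1019639 autosomal steps that held enough input. No step of the gene was low, beside 39.7% of the autosomal steps. The other 4 tested steps of the gene lay between the thresholds, and 2 steps held too little input. The median step ratio was 5.62 in the gene (quartiles 3.95 and 7.64), against 0.728 on the autosomes (0.303 and 1.46). The share of high steps is a consequence of how the gene was chosen and is not read further.

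Input counts this low leave single steps imprecise. The interval of 62 of the 71 steps spanned the ratio of the whole gene, 3 lay above it and 6 below. The SD of the log2 ratio over the tested steps was 0.82, against 0.59 that counting alone gives. The hMeDIP counts varied more than counting would: their coefficient of variation over the 71 steps was 44.6%, against 12.8% for a Poisson count of the same mean. The input counts had 36.5%, against 36.4%. Uneven hMeDIP recovery along the gene was thus larger than counting error, and unevenness of the input was not detectable at this depth.

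**Figure D2:**
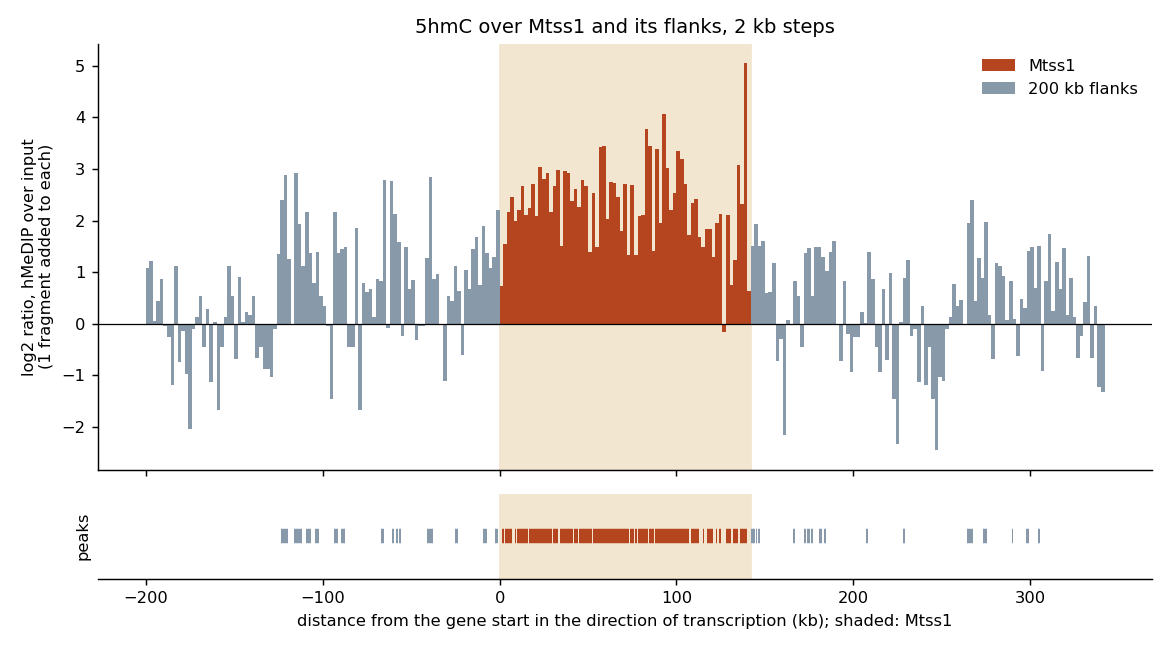
Upper panel: log2 of the hMeDIP share over the input share per 2 kb step after adding 1 fragment to each library (vertical axis) against the distance from the gene start in kb, with Mtss1 in red and the 200 kb flanks in grey. Lower panel: positions of the authors' peaks. The gene carries 37 peaks, and each flank carries 17.

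The gene start was a narrow gap in the hMeDIP fragments. The 2 kb centred on it, 58912001 to 58914000, held 3 hMeDIP and 2 input fragments. The 2 kb on the inner side held 27 hMeDIP and 7 input fragments (ratio 2.81, interval 1.19 to 7.64). On the outer side, 50 hMeDIP and 7 input fragments gave 5.20 (2.35 to 13.6). Among 301 windows of 2 kb, placed every 500 bp over the gene and 5 kb beyond each end, the window at the start held the fewest hMeDIP fragments, and the median window held 57. Farther than 2 kb from the start the lowest window held 10. The input was also low at the start, so the ratio of 1.09 had an interval of 0.125 to 13.1 and cannot place the start above or below the gene. The gap was thus seen in hMeDIP counts and not established in the ratio, and the part of the low input in it was not tested. This window was chosen after the values were seen.

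In 500 bp steps the gap was steep on its outer side and uneven on its inner side. From 58912001 to 58914000 the 4 steps held 1, 0, 1 and 1 hMeDIP fragments, and the next step outside the gene held 18. Going inward the steps held 5, 9, 11, 2, 3 and 19, and a peak of 1240 bp, 58910216 to 58911455, stood closest to the start inside the gene. It had 21 hMeDIP and 3 input fragments (ratio 5.10, interval 1.52 to 26.7). Outside the gene the closest peak, 58913944 to 58915741, had 50 and 7 fragments. The position of the start is known here to the kb only, and other starts within the gene were not used here.

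**Figure D3:**
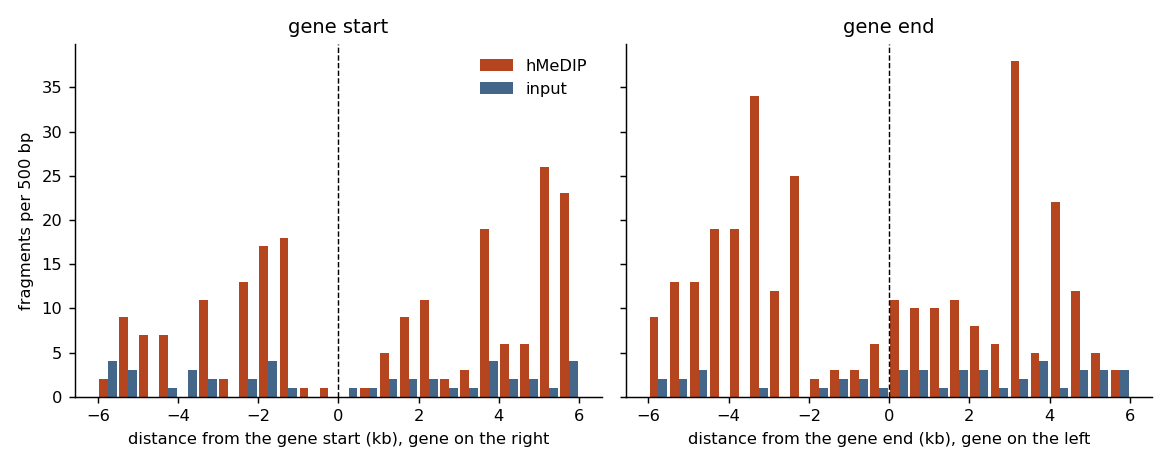
Fragments per 500 bp (vertical axis) of the hMeDIP library (red) and the input library (blue) within 6 kb of the gene start (left) and the gene end (right), against the distance from that end in kb, with transcription running to the right. The 4 steps around the start hold 0 or 1 hMeDIP fragments each, and a shallower gap lies just inside the end.

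Over 10 kb on each side of the start the gap was averaged out. The 10 kb inside the gene held 192 hMeDIP and 34 input fragments (ratio 4.11, interval 2.84 to 6.11). The 10 kb outside held 152 and 33 (ratio 3.35, interval 2.29 to 5.05). These intervals overlap, so a step down at the start was not detectable at this depth.

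The body, taken as the 122 kb between the outer 10 kb of each end, held 3880 hMeDIP and 473 input fragments (ratio 5.97, interval 5.43 to 6.58). The gene was further divided into 10 segments of 14.2 kb, counted from the start, after the values were seen. Segment 1 held 356 hMeDIP and 54 input fragments (ratio 4.80, interval 3.597 to 6.51). Segments 2 to 8 ran from 5.12 to 7.55 with overlapping intervals. The highest of them, segment 7 at 58813601 to 58827800, held 560 hMeDIP and 54 input fragments (ratio 7.55, interval 5.70 to 10.2). Segment 9, 58785201 to 58799400, was the lowest with 218 hMeDIP and 49 input fragments (ratio 3.24, interval 2.37 to 4.51). Its interval lay wholly below those of segments 2, 3, 5, 6, 7 and 8. Segment 10, which holds the gene end, had 4.99 (3.65 to 6.95).

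**Figure D4:**
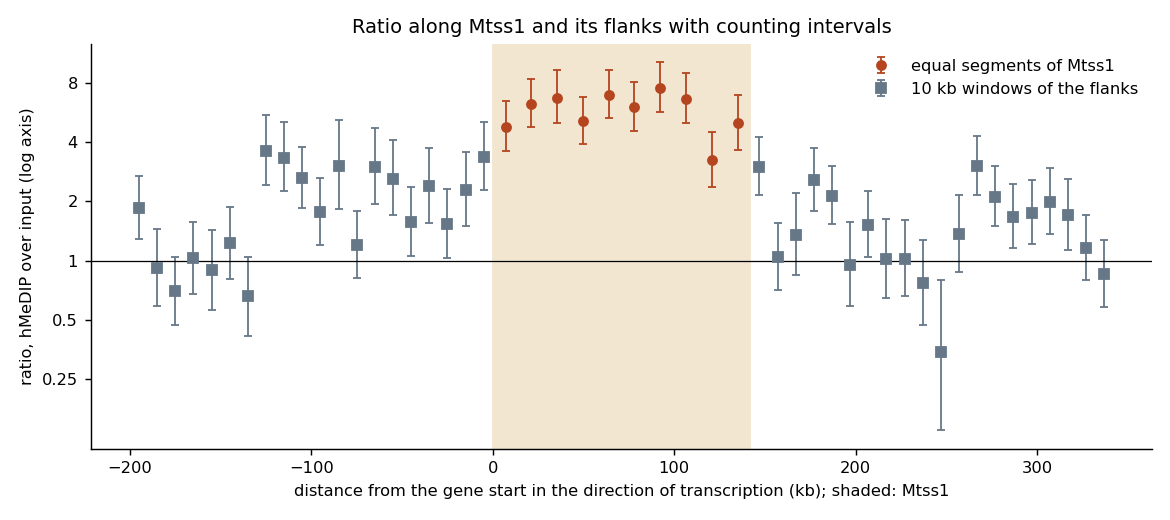
Ratio of hMeDIP to input shares (vertical log axis) in segments of 14.2 kb of Mtss1 (red circles) and 10 kb windows of the flanks (grey squares) against the distance from the gene start in kb; bars are 95% counting intervals. The segments lie between 3.24 and 7.55, and the flank windows between 0.345 and 3.59.

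The authors' peak list put 37 peaks with midpoints in the gene. Whether these peaks were called on this hMeDIP library alone is not known, which bears on every count, width and rank of peaks given here. They covered 116 kb, or 82.0% of it. Their widths ran from 494 to 13404 bp with a median of 2327 bp, against 1152 bp in the whole list of 92654 peaks. In the gene 7 peaks reached 5 kb and 2 reached 10 kb, of 565 and 27 in the list. The score the caller gave each peak, used here to rank peaks only, placed 11 of the 37 in the top 1% of the list (926 peaks) and 4 in the top 100. The widest of these peaks is part of what the gene was chosen by. These widths, scores and cover follow in large part from that choice and are a description. The ratio had an interval above 1 in all 37, against 17 of 17 before the start and 16 of 17 past the end, a description, since peaks are called where hMeDIP is enriched. A single peak, 58789873 to 58790822, held no input fragment and 24 of hMeDIP.

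The peak by which the gene was chosen, 58883181 to 58896584, lay 23.1 kb from the start at its midpoint and ranked 5 by width in the list. It held 493 hMeDIP and 54 input fragments (ratio 6.65, interval 5.01 to 8.97). The peaks next to it in width rank, on other chromosomes, measured 14048 and 13246 bp. The second widest of the gene, 58805848 to 58817069 (11222 bp), lay 102 kb from the start, ranked 13 by score, and held 456 hMeDIP and 41 input fragments (ratio 8.10, interval 5.88 to 11.4). The peak ranked 3 by score in the gene, 58817138 to 58825197 (8060 bp), held 359 and 29 fragments (ratio 9.01, interval 6.17 to 13.7). These 2 neighbours lie side by side and together run almost without a break from 58805848 to 58825197.

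A few more peaks were named by score or width. The peak 58845574 to 58853992 (8419 bp), with its midpoint 63.2 kb from the start, held 321 hMeDIP and 32 input fragments (ratio 7.30, interval 5.07 to 10.9). A narrower one, 58828817 to 58831993 (3177 bp), ranked 5 by score in the gene with 181 and 12 fragments (ratio 10.98, interval 6.13 to 21.6). It holds the 2 kb step with the most hMeDIP fragments of the gene, 131 against 6 of input. The peak ranked 5 by width in the gene, 58860972 to 58867313 (6342 bp), held 231 and 31 fragments (ratio 5.42, interval 3.72 to 8.17). Their intervals overlapped, so an order among them was not detectable at this depth.

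Peaks in the gene followed each other closely, which follows in large part from how the gene was chosen and is a description. The 36 gaps between them had a median of 392 bp and a longest of 2848 bp, against a median of 3490 bp over the whole list. When peaks within 1 kb were merged, 25 of the 37 became a single block from 58800165 to 58904336, 104 kb long, and 8 smaller blocks remained. The block stopped short of both gene ends. Between the peaks the signal was far lower. Inside its peaks the gene had 4146 hMeDIP and 453 input fragments (ratio 6.66, interval 6.05 to 7.36). Outside them it had 159 and 82 (ratio 1.41, interval 1.07 to 1.87). On the autosomes these ratios were 5.27 (5.26 to 5.29) inside and 0.765 (0.765 to 0.766) outside. Much of the sequence between the peaks of the gene lies close to a peak. Within 250 bp of a peak the ratio was 0.920 (0.588 to 1.45) in the gene and 0.947 on the autosomes. From 250 to 500 bp it was 1.97 (1.16 to 3.47) in the gene and 1.47 on the autosomes, and from 500 to 1000 bp 2.31 (1.32 to 4.25) and 1.54. The intervals of the gene spanned the autosomal values at these 3 distances. From 1000 to 2000 bp the gene held 3 hMeDIP and 7 input fragments (ratio 0.312, interval 0.0521 to 1.37), wholly below the autosomal 1.40. Of the gaps between peaks only the longest, 58784861 to 58787708, reaches so far from a peak. These few fragments thus come from it or from beside the gene start, and are not read as a trait of the whole gene. Peak edges were drawn on the same signal, so that the contrast between inside and outside is a description.

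The highest single steps named here lay within the body, with centres 57 to 59 kb and 83 to 93 kb from the start. Of the steps with at least 3 input fragments, 58819001 to 58821000 held 114 hMeDIP and 4 input fragments (ratio 20.7, interval 7.89 to 77.4). The step 58829001 to 58831000 followed at 15.9 (7.11 to 44.1). Then came 58853001 to 58855000 and 58827001 to 58829000, both with 74 and 4 fragments and 13.5 (5.04 to 50.7). The next had 12.4, at 58823001 to 58825000 and 58855001 to 58857000. Close behind at 11.8 (5.22 to 32.9) came 58811001 to 58813000, centred 101 kb from the start. All of these ratios rest on 4 to 6 input fragments. Their order was not detectable at this depth, and their places are not read as a pattern along the gene.

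A dip was a step, or a run of neighbouring steps, whose interval lay wholly below the ratio of the whole gene. There were 5, and 3 of them fell within 16 kb of the gene end. The deepest, 58785001 to 58787000, held 10 hMeDIP and 8 input fragments (ratio 0.910, interval 0.323 to 2.65). The 4 kb on each side of it together had 3.82 (2.55 to 5.89). It lies in the longest gap between peaks of the gene. The dip 58779001 to 58783000 held 63 and 21 fragments (ratio 2.18, interval 1.31 to 3.77), beside 4.37 (2.87 to 6.90) on its sides. The dip at the very end, 58771001 to 58773000, held 14 and 6 fragments (ratio 1.70, interval 0.613 to 5.39).

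The other dips lay far from the end. The step just inside the start, 58911001 to 58913000, held 15 hMeDIP and 6 input fragments (ratio 1.82, interval 0.667 to 5.73). The step 58861001 to 58863000 held 46 and 12 fragments (ratio 2.79, interval 1.45 to 5.79), beside 5.64 (3.95 to 8.26). That step is fully covered by a peak, held more input than the median step, and was no dip when set against the mean input of the gene. By that measure, 25 steps in 13 dips fell below. Among them was a single stretch of 18 kb, 58785001 to 58803000, with 287 hMeDIP and 58 input fragments (ratio 3.602, interval 2.71 to 4.86).

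The last 10 kb of the gene held a strong peak. The ratio was lower beyond the end, but the intervals overlap slightly and the difference was not tested. The 10 kb inside the end held 233 hMeDIP and 28 input fragments (ratio 6.06, interval 4.08 to 9.32), and the 10 kb beyond it 185 and 45 (ratio 2.99, interval 2.15 to 4.24). Most of the fragments inside came from 1 peak, 58772962 to 58777144 (4183 bp), which ranked 390 by score in the list. It held 148 hMeDIP and 9 input fragments (ratio 12.0, interval 6.14 to 26.7). The step 58773001 to 58775000 within it held 90 hMeDIP fragments and 1 input fragment, so its ratio has an interval from 11.5 to 2616 and it was left out of the tested steps. Beyond the end, 3 peaks lay within 10 kb, and the nearest, 58768580 to 58771134, crossed the end of the interval.

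Both flanks were lower than the gene and above the mean of the genome. The 200 kb before the start held 1834 hMeDIP and 725 input fragments (ratio 1.84, interval 1.69 to 2.01), and the 200 kb past the end 1763 and 786 (ratio 1.63, interval 1.5 to 1.78). The ratio of the gene was 3.18 times that of the flank before the start and 3.59 times that of the flank past the end. High steps were 35 of 93 (37.6%) before the start and 31 of 96 (32.3%) past the end, beside 16.2% of the autosomal steps. Peaks covered 15.7% and 11.7% of these flanks, with a widest of 2989 bp before the start and 2555 bp past the end.

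The signal left the gene in unlike ways on its sides. In 10 kb windows, all 14 full windows of the gene, laid from its end, were high, beside 12.3% of the 232639 autosomal windows. Most of these 14 lie in the 100 kb bin by which the gene was chosen, so their count follows in large part from that choice and is not read further. Before the start the ratio stayed at 2 or more for 20 kb, fell to 1.53 (1.03 to 2.30), and was at 2 or more in 9 of 20 windows. These were scattered up to 130 kb from the gene, where the window 59033001 to 59043000 reached 3.59 (2.43 to 5.47) with 153 hMeDIP and 31 input fragments. The next window outward, 59043001 to 59053000, held 39 and 43 fragments (ratio 0.660, interval 0.417 to 1.04). From there to 200 kb no peak midpoint was found. Past the end the ratio stayed at 2 or more for 10 kb and was 1.05 (0.714 to 1.55) in the next window, and 5 of 20 windows were high. The highest lay 120 to 130 kb from the gene, 58641001 to 58651000, with 183 and 44 fragments (ratio 3.03, interval 2.17 to 4.31). The lowest window, 58661001 to 58671000, held 9 hMeDIP and 19 input fragments (ratio 0.345, interval 0.137 to 0.800). The windows beside it held 36 and 60 hMeDIP and 34 and 32 input fragments.

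The widest flank peaks were all narrower than 3 kb. Before the start they were 59025954 to 59028942, with a ratio of 6.92 (3.34 to 16.6), 59019670 to 59022249, with 4.22 (2.14 to 9.27), and 59000149 to 59002687, with 3.47 (1.89 to 6.88). Past the end they were the peak at the gene end named above, with 3.03 (1.59 to 6.26), 58637687 to 58639821, with 4.37 (2.35 to 8.84), and 58613465 to 58615540, with 3.40 (1.63 to 7.94). The ratios inside all peaks were 5.29 (4.31 to 6.55) before the start and 4.44 (3.61 to 5.49) past the end. The ratio inside the peaks of the gene was 6.66, so the flanks lay closer to the gene in this than in the share their peaks covered.

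RefSeq's gene table for build GRCm38.p6, whose coordinates are not those of these files, lists Mtss1 with a length of 143 kb. On the side of the gene end its neighbours are Ndufb9, a subunit of mitochondrial complex I, and then Tatdn1. On the side of the start come the pseudogenes Rpl7-ps8 and Gm7691 and the long noncoding RNA Gm36617. The nearest protein-coding gene on that side is Sqle, the squalene epoxidase of cholesterol synthesis. The table also places a long noncoding RNA, Gm41330, inside Mtss1. Which of them fall within the flanks on mm9 was not analysed here.

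Set beside the rest of the autosomes, Mtss1 stood near the top, as its choice requires. Of 16511 other windows of 142 kb, 1 had a higher ratio: 119831001 to 119973000 on chromosome 8, with 4305 hMeDIP and 516 input fragments (ratio 6.07, interval 5.54 to 6.67). This interval overlaps that of Mtss1. The median window had a ratio of 0.761 (quartiles 0.383 and 1.37). Peaks covered 82.0% of Mtss1, and no other window reached that share, the next being 81.3%. The other windows lie on a fixed grid that takes no account of genes, and the part of their placement in this order was not tested. The input of Mtss1, 535 fragments, was higher than that of 67.6% of the windows.

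**Figure D5:**
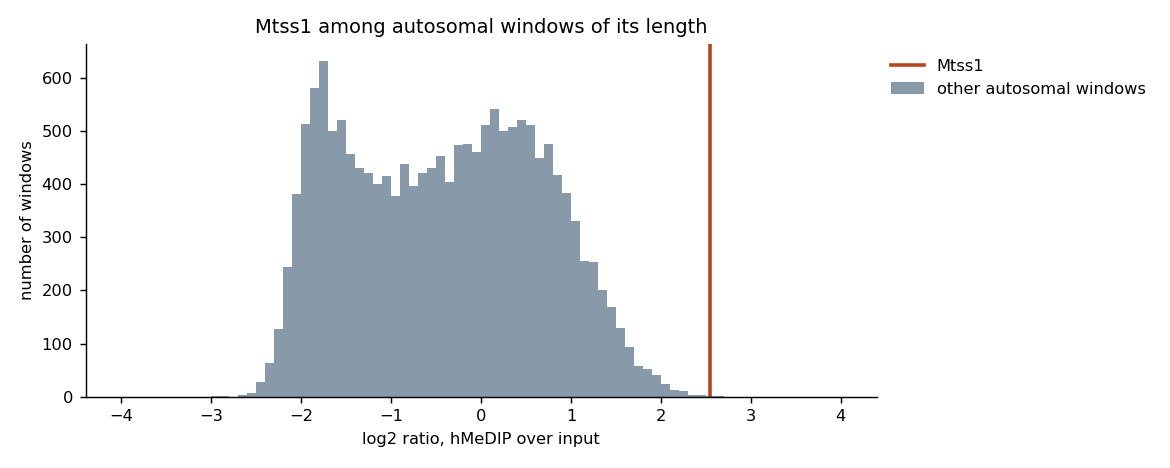
Number of autosomal windows of 142 kb (vertical axis) by log2 ratio of hMeDIP to input shares (horizontal axis); the red line marks Mtss1. Mtss1 stands at 2.55, and 1 of 16511 other windows is higher.

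The evenness of the signal was described by the longest run of high 2 kb steps. The run covers the whole 100 kb bin by which the gene was chosen, so its length and rank follow in large part from that choice and support nothing. In Mtss1 it spanned 62 steps, from 58787001 to 58911000 (124 kb), and ended at the dips described above. The next longest runs of the autosomes measured 102 kb, at 191561001 to 191663000 on chromosome 1, and 96 kb, on chromosome 9. The place at the head of the list depended on the settings, which were added after the values were seen: the rank was 2 with a threshold of 1.5 or with 150 bp fragments, 6 with 4 kb steps, 7 with a threshold of 4 and 1 when scaled to fragments outside peaks. The median run was 1 step.

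The 5 highest autosomal 100 kb bins allow a comparison with the regions most like it. The bin within Mtss1, 58800001 to 58900000, held 3459 hMeDIP and 390 input fragments (ratio 6.46, interval 5.81 to 7.19). The bins ranked 1 and 3 by the same measure had 7.995 (7.16 to 8.96) and 6.19 (5.50 to 6.98). In the Mtss1 bin all 50 steps were tested and all were high, with the lowest at 2.26. In the other 4 bins, by rank, 49 of 50, 43 of 46, 32 of 38 and 37 of 40 tested steps were high, with lowest steps of 1.79, 1.32, 0.243 and 0.121. The coefficient of variation of hMeDIP fragments over steps was 35.4% in the Mtss1 bin, against 29.6%, 42.1%, 77.1% and 67.8%. Peaks covered 92.1% of the Mtss1 bin, against 91.2%, 74.6%, 52.3% and 57.2%. By these values the bins of Mtss1 and of rank 1 were the most evenly filled of the 5, with 6 peaks of at least 5 kb each. Only the bins of rank 3 to 5 had steps with too little input. Their input was 3.13, 2.5 and 2.62 fragments per kb, against 3.9 in the Mtss1 bin and 3.42 in that of rank 1. The part of this low input in their unevenness was not tested. None of these differences has a replicate behind it.

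The stretches of the gene outside that bin did not enter the bin's value. The 13 kb on the start side held 309 hMeDIP and 49 input fragments (ratio 4.59, interval 3.39 to 6.34), and the 29 kb on the end side 537 and 96 (ratio 4.07, interval 3.27 to 5.11). Both stretches adjoin the bin, and both intervals lay above those of either 200 kb flank. They overlapped those of the 10 kb just outside the gene on the same side. These were 3.35 (2.29 to 5.05) before the start and 2.99 (2.15 to 4.24) past the end. The interval of the end side also lay below that of the bin.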

How the data were processed

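Hydroxymethylated DNA immunoprecipitation sequencing (hMeDIP-seq) of mouse kidney DNA was analysed in 1 hMeDIP and 1 input library. CASAVA, Bowtie 1.0.0 and build mm9 are named per the submitters' processing notes. The deposited position files give a 350 bp stretch, a strand and a whole-number count per line, read here from the values as the reads sharing a position. The authors' peak list carries a score per peak and was made with MACS, per the file headers. Its header names hMeDIP_1-5, whose meaning is not given, so that the library or libraries behind the peaks are not known. For alignment settings, read filters and the caller's settings, the sources used here give nothing. Depth was 11424027 hMeDIP and 8316507 input fragments.

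Fragments were counted once each by midpoint with Python 3.11.15, numpy 2.4.6, pandas 2.3.3 and scipy 1.17.1, and figures were drawn with matplotlib 3.10.9. A ratio is the hMeDIP share over the input share of all fragments, and its 95% interval is the Clopper-Pearson one for a binomial count given the total. It covers counting error only, since reads lack molecular identifiers and need not be separate molecules. Flanks were 200 kb, step calls needed 3 input fragments, and the call was tested on simulated data. The gene interval and its lists were chosen with earlier results of these data known. Named peaks were the 5 with the highest score, the 5 widest, those nearest each end and the 3 widest of each flank. Named steps were the 5 highest and all dips. CpG content was not analysed here. Alternatives covered scaling, read weights, fragment length, strand, step size and phase, input minimum, thresholds, pseudocount and peak merging. No P values were computed.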

Additional observations from a re-analysis of the deposited data

Results flagged for a closer look

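The number of reads per position, which no comparison above used, was higher in the hMeDIP library than in the input over Mtss1. Positions with 2 or more reads were 124 of 4305 (2.88%, exact interval 2.40 to 3.42) in hMeDIP and 1 of 535 (0.187%, 0.00473 to 1.04) in input, and no position held more than 3 reads. In the 200 kb before the start the shares were 1.64% in hMeDIP and 0.552% in input, past the end 2.04% and 0.636%, and on the autosomes 1.33% and 0.335%. The hMeDIP density was 30.3 fragments per kb in the gene, 9.17 before the start, 8.82 past the end and 4.55 on the autosomes. It was highest where the hMeDIP share was highest, but the flanks stood in the opposite order, and its part in the result was not tested.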

How the results depend on the processing

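Of 83 values of 16 results under the alternatives, 58 stayed within their bounds, 25 moved and none was labelled reversed. Many of these results are counts, lengths or ranks, which have no direction to reverse. Scaled to the fragments outside peaks, the ratios were 7.73 for the whole gene, 4.93 at its start, 7.88 in the body, 5.50 at its end, 2.43 in the flank before the start and 2.16 in that past the end, which multiplies every ratio alike. With fragments in peaks left out they were 1.41, 1.57, 1.36, 1.63, 1.26 and 1.19 in the same order, by construction, since 82.0% of the gene is peak. The body (interval 0.984 to 1.89, which spans 1) then lay below the start (1.02 to 2.47) and the end (1.07 to 2.54). These 3 intervals overlap. Plus strand fragments alone gave 6.62 in the body and 1.63 before the start, and minus strand fragments 5.37 and 2.08; the cause was not tested. Dips numbered 1 in steps of 4 kb, 1 in steps of 10 kb and 13 against the mean input of the gene, against 5. The median step log2 ratio, 2.32 with a pseudocount of 1, was 1.83 with 5, steps being low in input. With a threshold of 1.5 the border before the start moved to 70 kb, and past the end it moved to 5 kb in windows of 5 kb and 0 kb in windows of 20 kb. Merging peaks within 1 kb left 9 blocks. The longest run of high steps fell to 30 kb at a threshold of 4, a setting added after seeing the data. The gene kept rank 2 among windows of its length under the 3 alternatives run. A median of 7 input fragments per 2 kb step limits single steps and dips most. No paired analysis was possible because each group has 1 library.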

Other observations

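The strands of Mtss1 were not equally represented in the hMeDIP library. Plus strand fragments made up 53.1% (exact interval 51.6 to 54.6) of hMeDIP and 49.3% (45.0 to 53.7) of input fragments in the gene. In the 200 kb before the start the shares were 46.8% (44.5 to 49.1) in hMeDIP and 52.8% (49.1 to 56.5) in input. In the 200 kb past the end they were 52.6% (50.3 to 55.0) in hMeDIP and 51.5% (48.0 to 55.1) in input, and on the autosomes 50.02% and 50.002%. Over the 71 steps of the gene, plus and minus strand hMeDIP fragments of the same library had a Spearman's rho of 0.70, given as a description across steps that share fragments' sources. Fragments of hMeDIP and input had a rho of 0.19 over the same steps.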
